A study of Mus musculus with 47 samples.

Results

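Hnf4a, Foxa1, Foxa2, Foxa3, Onecut1, Onecut2, Cebpa and Cebpb encode transcription factors that give hepatocytes their identity. These 8 genes, of 22367 protein-coding genes on the assembled mouse chromosomes, were taken by name, and their positions in the mm9 mouse genome were used to look up the histone marks on and around them. Hepatocyte nuclear and C/EBP factors bind together at the enhancers and promoters of liver genes, and each binds the genes of several others, so that they form a network that sustains its own expression. The forkhead factors (Foxa) can bind sites in closed chromatin and open them for other factors, Hnf4a is the nuclear receptor that most hepatocyte genes depend on, the Onecut factors act in the choice between hepatocyte and bile duct fates, and the C/EBP factors control metabolic and acute phase genes.

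ChIP-seq of H3K27me3, a repressive mark placed by Ezh1 and Ezh2, and of H3K27ac and H3K4me1, which mark active and poised enhancers and promoters, was carried out on frozen livers of 7 week old mice, with 47 samples in all. Control mice (strain label Ezh2 f/f) carried floxed Ezh2 without Cre. E1/E2-KO mice (Ezh1-/-, EZH2f/f, AC+, here KO) lacked Ezh1 in every cell and had Ezh2 deleted by Cre under the albumin promoter, which is active in hepatocytes, so that other liver cells kept Ezh2. Male and female mice of both genotypes gave 4 groups, named control male, KO male, control female and KO female here, each with 4 livers per mark, except that the labels give 3 for H3K4me1 of KO female liver. The authors pooled the reads of a group before they called peaks, so that each group has 1 list per mark and 12 lists were deposited. A value below is therefore read from 1 list, has no replicate error and was not tested between groups. The number of reads behind a list is unknown, and a place without a peak was not called there, though it may still carry some signal. In whole liver, a mark in fewer cells and less of the mark per cell cannot be told apart.

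The lists differed in length. H3K27ac peaks numbered 29359 in control male liver and between 49702 and 55930 in the other 3 groups, H3K4me1 peaks between 51417 and 69797, and H3K27me3 regions between 15603 and 19796. Of 6 endothelial markers, 4 were at least 50% covered by H3K27me3 in either control list and 1 in either KO list, while markers of cholangiocytes counted 5 of 6 in every list and hepatocyte markers went from 0 of 6 in both controls to 2 of 6 in both KO lists. In control male, KO male, control female and KO female liver, 4, 4, 4 and 3 of 5 matched Kupffer cell markers were so covered. Stellate cell markers counted 5, 5, 5 and 4 of 6 in this order, and lymphoid markers 5, 5, 4 and 5 of 6. An H3K27ac peak lay within 1 kb of the start of 1 of the 6 endothelial markers in either control list, 3 in KO male and 4 in KO female liver. For hepatocyte markers this count was 2 of 6 in control male liver and 4 in each of the other 3 groups, and for cholangiocyte markers 1 in every list. It was 1, 1, 2 and 2 for stellate cell markers in the order above, 0, 0, 1 and 0 for lymphoid markers, and 0 in every list for Kupffer cell markers. Serpina1a, 1 of the hepatocyte markers, had no H3K27ac peak within 10 kb and no H3K27me3 coverage in any list. The part of other liver cells in the results below was not tested. Peak lists cannot show whether an exon of Ezh1 or Ezh2 was deleted.

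The members lie on chromosomes 2, 7, 9, 12 and 18, and their start sites differ in CpG content, a property of the sequences that Polycomb complexes often occupy. Within 1 kb of the start, the median protein-coding gene had 61 CpG dinucleotides. Cebpb had 230 and Cebpa 205, more than 99.7% and 99.2% of genes. Onecut2 had 162, Onecut1 128, Foxa3 121 and Foxa2 94, and Foxa1 had more than 95.0% of genes. Hnf4a was the exception, with 33 around its upstream start and 43 around its downstream start, which is the start that adult hepatocytes mainly use. The 250 bases before 4 of the starts are given below because these genes carried the 3 patterns of H3K27me3 described next. They were read from the NCBIM37 genome, which is mm9, on the strand of the gene, and capitals mark CpG.
Hnf4a, downstream start, chr2:163372673-163372922, plus strand, 4 CpG: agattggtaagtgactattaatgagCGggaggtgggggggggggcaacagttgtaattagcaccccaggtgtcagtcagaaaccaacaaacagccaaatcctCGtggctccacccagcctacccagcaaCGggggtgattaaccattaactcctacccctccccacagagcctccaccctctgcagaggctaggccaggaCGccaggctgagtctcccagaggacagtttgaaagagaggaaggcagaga
Foxa3, chr7:19608888-19609137, minus strand, 18 CpG: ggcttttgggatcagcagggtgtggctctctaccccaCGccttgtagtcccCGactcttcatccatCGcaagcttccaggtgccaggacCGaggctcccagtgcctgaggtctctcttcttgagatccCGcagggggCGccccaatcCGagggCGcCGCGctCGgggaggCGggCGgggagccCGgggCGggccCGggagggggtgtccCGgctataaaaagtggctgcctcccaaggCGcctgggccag
Cebpa, chr7:35904062-35904311, plus strand, 22 CpG: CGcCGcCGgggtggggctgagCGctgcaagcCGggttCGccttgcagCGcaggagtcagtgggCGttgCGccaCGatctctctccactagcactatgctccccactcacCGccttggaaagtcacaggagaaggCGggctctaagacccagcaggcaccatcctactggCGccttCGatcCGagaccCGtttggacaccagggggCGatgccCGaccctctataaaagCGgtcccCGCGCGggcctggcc
Foxa2, chr2:147872706-147872955, minus strand, 6 CpG: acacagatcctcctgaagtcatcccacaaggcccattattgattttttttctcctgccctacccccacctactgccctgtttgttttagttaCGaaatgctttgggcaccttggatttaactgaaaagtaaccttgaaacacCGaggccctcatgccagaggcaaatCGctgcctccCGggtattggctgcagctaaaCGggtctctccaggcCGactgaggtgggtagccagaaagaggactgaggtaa

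The median over 22362 promoters was 9 CpG in these 250 bases. The first few bases of the Hnf4a sequence also lie in an exon of a noncoding Hnf4a transcript, and the other 3 sequences lie outside annotated exons. Motifs of the members' own factors were searched on both strands in the same window of all 8 genes. A forkhead motif (TGTTTAC, in 2.65% of promoters) was found before Foxa1. A Onecut motif (ATCGAT or ATTGAT, 7.14%) was found before Foxa2, within the sequence shown, and before the upstream start of Hnf4a. No member had the letters CAAAGTC of HNF4 (3.53%) or TTGCNNAA of C/EBP (8.99%) in its window.

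The first comparison asked whether more or less of each member lay inside H3K27me3 regions in KO than in control liver. The lists hold no score or count. This share therefore gives the extent of the called regions and not the amount of the mark, which may be lower where the share is higher. The share of the gene inside H3K27me3 regions was higher in KO than in control liver by at least 25 percentage points at 6 of 8 members in males and at 4 of 8 in females. Of all protein-coding genes, 9.86% were higher and 6.07% lower by this rule in male liver, and 6.29% were higher and 7.59% lower in female liver. Only Foxa1 and Foxa2 were covered enough in control liver to be lower by this rule, and neither was, where 17.7% of such genes were lower in males and 22.2% in females. Being fully covered, they had no room to be higher. Among genes with room, the members counted 6 of 6 in males, where 13.3% of such genes were higher, and 4 of 6 in females, where 8.45% were. The 4 members higher in both sexes were Hnf4a, Foxa3, Onecut1 and Onecut2, a class that held 3.32% of all genes.

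**Figure D1:**
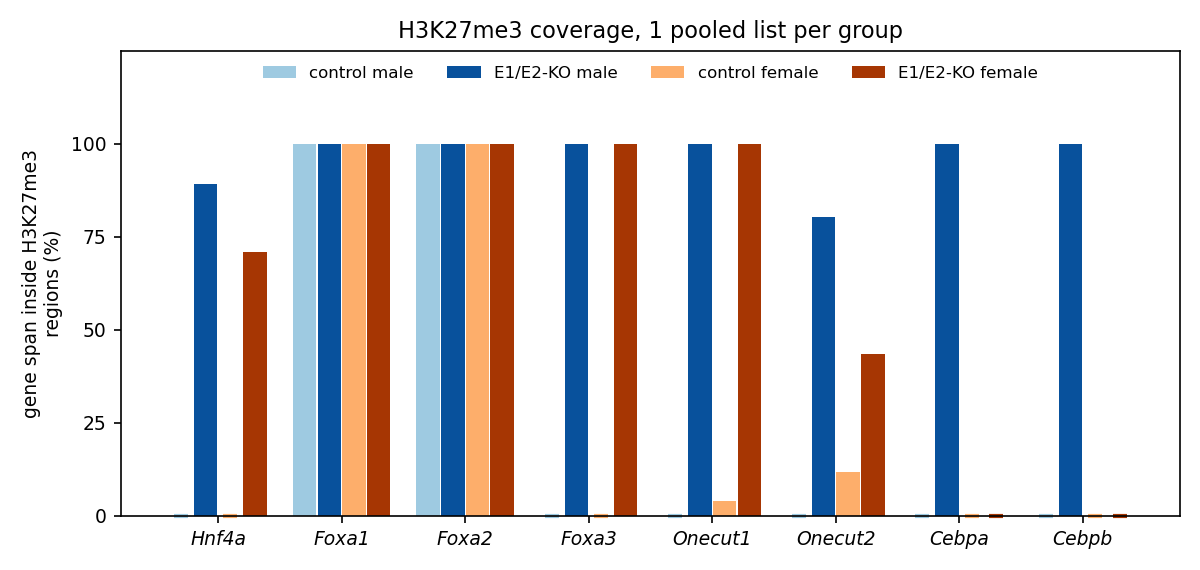
Percent of each gene span inside H3K27me3 regions (y axis) for the 8 genes (x axis). Each bar is 1 pooled list, a short mark at the axis is a value of 0, and there are no error bars because no list has a replicate. Foxa1 and Foxa2 are at 100% in all 4 groups, and Cebpa and Cebpb are covered in KO male liver only.

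Hnf4a (chr2:163332544-163398646, plus strand) had no base inside an H3K27me3 region in either control list. In KO liver 89.1% of the gene was covered in males and 71.0% in females. The coverage came from a pair of regions in each sex, with a gap between them. The upstream region, 96.0 kb long in males and 40.8 kb in females, reached over the upstream start from a domain that was already marked, and 65.8% and 65.7% of its bases lay in regions of the control list of that sex. The downstream region, 54.4 kb in males and 51.2 kb in females, held the downstream start and all of the gene after it, and none of its bases lay in a control region of that sex. The gene's neighbour R3hdml lay whole inside the upstream region in both sexes.

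H3K27ac was present at the downstream start of Hnf4a in all 4 lists. The peak there was 1444 bp wide in control male, 1699 bp in KO male, 1683 bp in control female and 1669 bp in KO female liver. Its near edge lay between 58 and 131 bp downstream of the start in the 4 lists, beyond the sequence printed above. At the upstream start the H3K27ac peak was narrower, at 350, 720, 592 and 510 bp in the same order. H3K4me1 was called on the upstream start in 3 lists, at 615 bp in control male, 505 bp in KO male and 369 bp in control female liver. In KO female liver the nearest H3K4me1 peak was 24676 bp away.

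**Figure D2:**
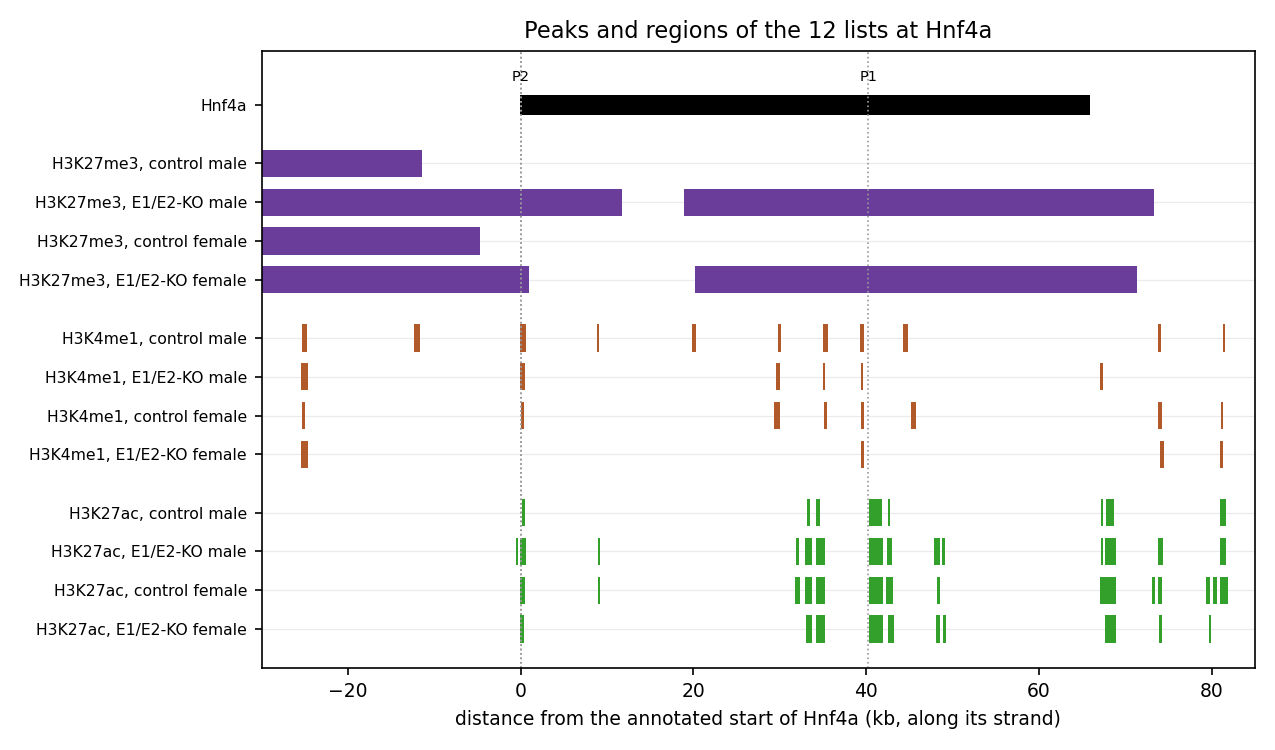
Regions and peaks of the 12 lists at Hnf4a, with distance from the upstream start on the x axis in kb, 1 line per list, the gene as a black bar and dotted lines at the upstream (P2) and downstream (P1) starts. The downstream H3K27me3 region appears in both KO lists and in neither control list, and the wide H3K27ac peak at the downstream start appears in all 4 groups.

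Foxa3 (chr7:19598631-19608887, minus strand), a forkhead gene that works in glucose and lipid metabolism, showed the same change without a marked domain at its border. Its coverage was 0% in both controls and 100% in KO liver of both sexes. The region was 16.8 kb long in males and 18.4 kb in females, none of it lay in a control region, and Foxa3 was the only protein-coding gene that it held whole. The nearest control regions were 17030 bp away in males and 18630 bp in females. The region ended 313 bp before the Foxa3 start in males and 713 bp before it in females, short of the start of Sympk, which lies 839 bp from that of Foxa3 on the other strand. A change from 0% to 100% was found at 1.37% of genes in females, where Foxa3 was the only such member, and at 2.88% in males, where Onecut1, Cebpa and Cebpb also had it.

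Onecut1 (chr9:74709728-74737591, plus strand) and Onecut2 (chr18:64500002-64560641, plus strand) lay at the edge of H3K27me3 domains in control liver. Onecut1 was covered to 0% in control male, 100% in KO male, 3.85% in control female and 100% in KO female liver, and the nearest control male region ended 527 bp from the gene. A region of 97.2 kb in males and 100.8 kb in females took in the whole gene in KO liver. Onecut2 was covered to 0%, 80.2%, 11.9% and 43.5% in the same order. Its control female region already held all bases within 5 kb of the start, so that the higher coverage in KO female liver lay in the body of the gene. At the Onecut2 start the male lists differed, with 0% of the bases within 5 kb covered in control and 100% in KO liver.

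Cebpa (chr7:35904312-35906945, plus strand), which drives gluconeogenic and urea cycle genes, and Cebpb (chr2:167514415-167515918, plus strand), which acts in the acute phase and in regeneration, were covered to 0% in control male, 100% in KO male, 0% in control female and 0% in KO female liver. The KO male region over Cebpa was 122.4 kb long and also held Slc7a10 and Lrp3 whole. The nearest control regions lay 49455 bp from Cebpa in males and 49055 bp in females. The region over Cebpb was 36.0 kb long, and 73.3% of it lay in a control male region that stopped 4814 bp from the gene. In KO female liver the nearest regions stopped 655 bp from Cebpa and 414 bp from Cebpb. With 3 kb added to each side of the gene, coverage in females was higher in KO liver by 27.2 percentage points at Cebpa and by 32.0 at Cebpb. Both pass the rule, so the count of 4 members in females became 6, where 6.61% of all genes were higher. The difference between the sexes at these genes was not tested.

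Foxa1 (chr12:58641618-58647108, minus strand) and Foxa2 (chr2:147868613-147872705, minus strand), the forkhead factors needed for liver specification in the embryo, were 100% covered in all 4 lists, as were 12.3% of genes. The region over Foxa1 was 25.6 kb long in control male, 40 kb in KO male, 27.2 kb in control female and 56.4 kb in KO female liver. That over Foxa2 was 91.2, 182, 99.6 and 100.0 kb long. The regions over Foxa1 were thus longer in KO liver of both sexes, and the region over Foxa2 was longer in males and close to the control length in females. Both genes also had H3K27ac peaks within 10 kb in every list, a combination held by 3.43% of genes.

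**Figure D3:**
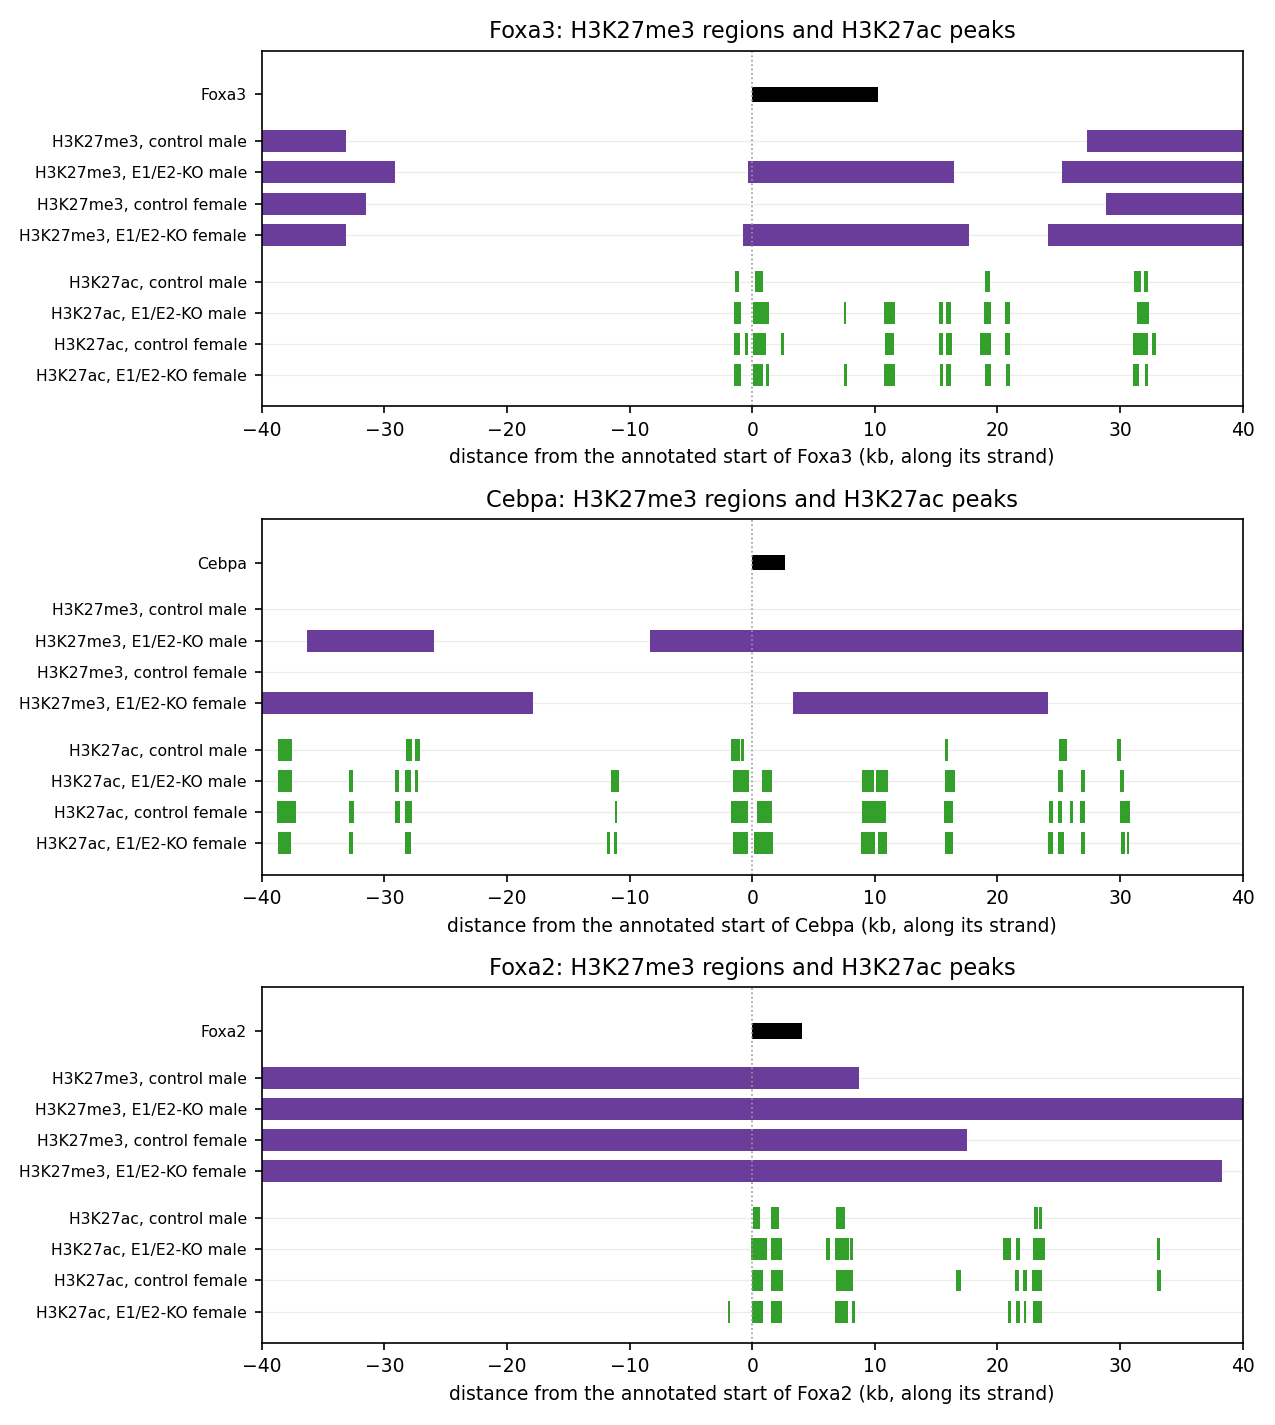
H3K27me3 regions (purple) and H3K27ac peaks (green) of the 4 groups around Foxa3, Cebpa and Foxa2, with distance from each start on the x axis in kb along the gene's strand and the gene as a black bar. Foxa3 has a separate region in both KO lists, Cebpa lies inside a region in KO male liver and beside one in KO female liver, and Foxa2 lies inside a region in all 4 lists.

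H3K27ac was then read within 10 kb of each gene, as the number of peaks and the bases inside them. All 8 members had more H3K27ac bases in KO than in control male liver by at least 1.5 times and 1000 bases. Of all protein-coding genes 20.1% were higher and 0.0134% lower by this rule, and 30.4% of those with a peak in all 4 lists were higher. The control male list was the shortest of the 4. The median ratio of KO to control bases in males was 2.73 over the members and 1.45 over all genes with peaks in both lists. When each list was cut to the same number of widest peaks, 6 members were still higher in males, against 9.81% of genes, and Foxa1 and Onecut2 no longer passed. In the gene span only, 3 members were higher in males, against 11.4% of genes, and within 5 kb of the start 5 were, against 3.57%. In females no member was higher (0.782% of genes were) and Onecut1 alone was lower (5.23%), with a median ratio of 0.810 over the members and 0.854 over all genes.

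Cebpa had the largest share of its window in H3K27ac peaks in 3 of the 4 lists. The peaks covered 4.22% of the window in control male, 17.7% in KO male, 20.5% in control female and 20.1% in KO female liver. In bases these values were 955, 4007, 4638 and 4552. Control male liver stood apart from the other 3 groups, which were close to one another. Cebpb had 280 bases in control male, 2236 in KO male, 2877 in control female and 2175 in KO female liver, again with control male liver far below the other 3 groups. Part of the Cebpb window is shared with Tmem189, whose start lies 907 bp from that of Cebpb. A noncoding transcript also starts in this window, 2262 bp from the Cebpb start. Its start lies inside an H3K27ac peak of 1298 bp in KO male, 1270 bp in control female and 1042 bp in KO female liver. Control male liver had no peak there. The peaks of this window thus cannot be given to Cebpb alone.

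For the forkhead genes, Foxa3 had 1465, 4264, 4455 and 3905 bases in H3K27ac peaks in control male, KO male, control female and KO female liver. Foxa2 had 1934, 4004, 3275 and 3230 bases in the same order. Foxa1 had 1439, 2569, 2510 and 2051 bases. Each was lowest in control male liver, with less distance between the groups at Foxa1 and Foxa2 than at Foxa3. The Foxa3 window also holds the starts of Sympk and Irf2bp1, so that its peaks cannot be given to Foxa3 alone. No other protein-coding gene reached into the windows of Foxa1 and Foxa2. The Foxa2 window does hold the start of a noncoding transcript, 6766 bp from that of Foxa2, so that its peaks cannot all be given to Foxa2.

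Hnf4a had the most H3K27ac bases of the 8 genes in every list, in the longest of the 8 windows. That window also holds the start of a noncoding transcript on the other strand, 34782 bp from the upstream start of Hnf4a. Hnf4a had 4252 bases in 7 peaks in control male and 8587 in 13 peaks in KO male liver. It had 8845 in 11 peaks in control female and 7104 in 9 peaks in KO female liver. Onecut2 had 1626, 4130, 5739 and 3894 bases in the same order. Onecut1 had 388 bases in 1 peak in control male, 3069 in 3 peaks in KO male, 3502 in 4 peaks in control female and 1375 in 4 peaks in KO female liver. Onecut1 was the only member at which both genotype differences passed the rule, and they had opposite signs. With a window of 50 kb the female difference at Onecut1 no longer passed. Onecut2 was then the member lower in females, and it also passed within 5 kb of the start and with equal numbers of the widest peaks.

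**Figure D4:**
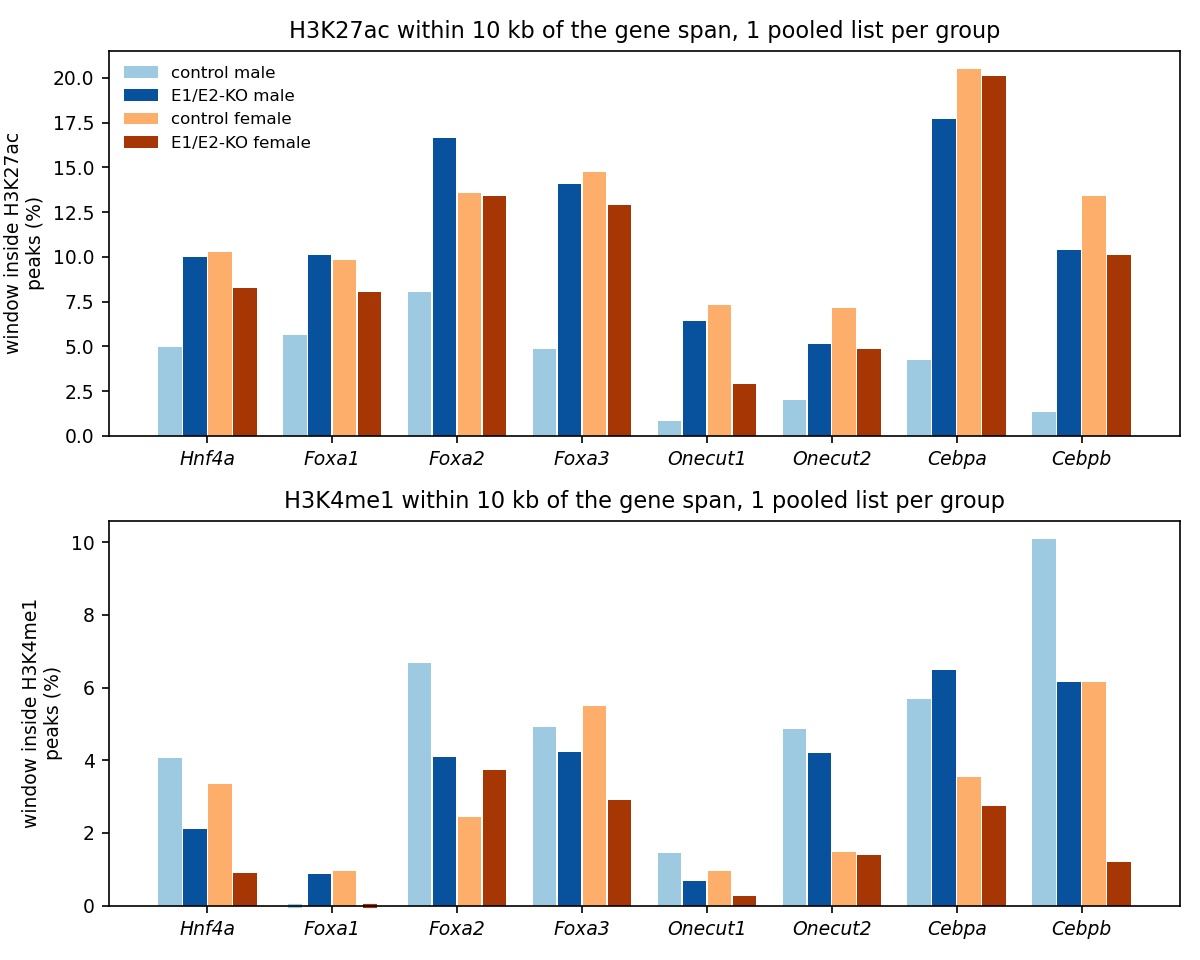
Percent of the window (gene span and 10 kb on each side) inside H3K27ac peaks (upper panel) and H3K4me1 peaks (lower panel), y axes in percent, for the 8 genes on the x axis. Each bar is 1 pooled list and no list has a replicate. The control male bar is the lowest for H3K27ac at all 8 genes, and the KO female bar for H3K4me1 is the lowest, or shares 0 with control male liver at Foxa1, at every gene except Foxa2.

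Control male liver had 22 H3K27ac peaks in the windows, KO male 46, control female 44 and KO female 45. All 22 control male peaks had an overlapping peak in KO male liver, where 9.66% of the whole control male list had none. Of the 46 KO male peaks 25 had none in control male liver, a share near the 54.5% of the whole KO male list. In females 8 of 44 control peaks and 5 of 45 KO peaks had no counterpart, where 27.9% and 24.9% of the whole lists had none. Merged over the lists, the peaks formed 52 sites, of which 15 (28.8%) were missing from the control male list alone, against 13.4% of 73127 sites over the genome. No site was found in control male liver only, but its list was the shortest. No share over the genome was computed for that class, so nothing is read from it. In all 4 lists were 19 sites (36.5%), against 30.1% over the genome.

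Peaks that matched 1 to 1 between genotypes also differed in width. In males 19 of 20 matched H3K27ac peaks were wider in KO liver, with a median ratio of 1.65, against 75.4% wider and a median of 1.19 over 22753 pairs of the genome. The largest ratio was at the Onecut1 start, 388 bp in control and 2010 bp in KO male liver, and the 1 peak that was not wider lay downstream of Hnf4a, at 246 and 245 bp. In females 24 of 32 matched peaks were narrower in KO liver, a share near the 69.5% of 31270 pairs of the genome, with a median ratio of 0.835, against 0.894. The same Onecut1 peak had the smallest ratio there, 2053 bp in control and 533 bp in KO female liver.

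**Figure D5:**
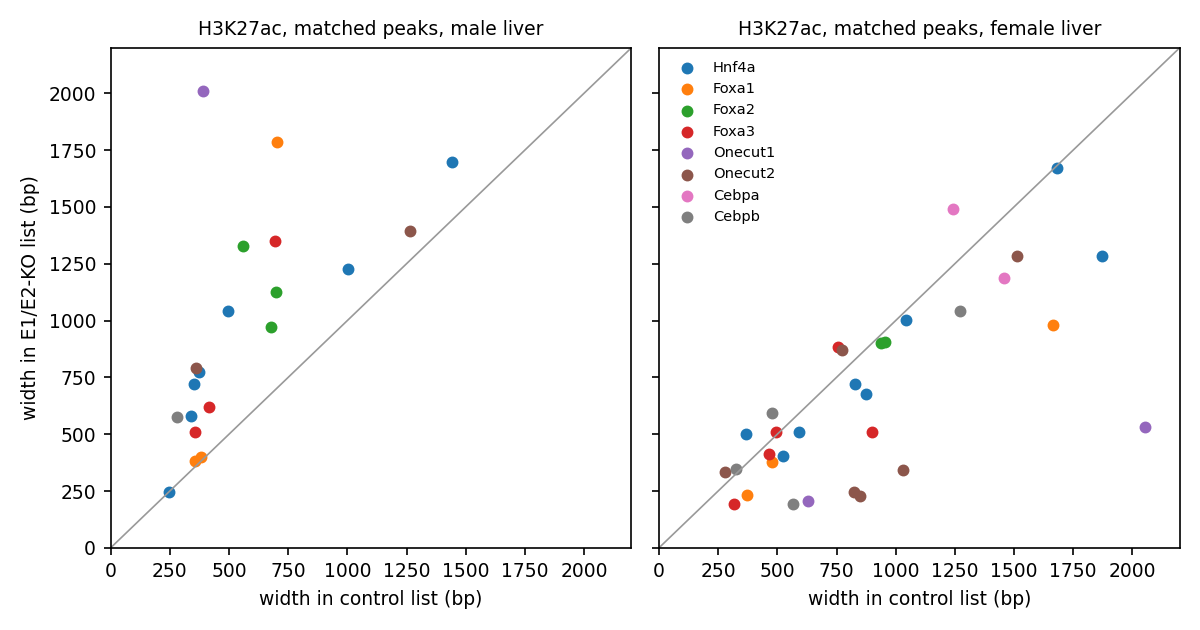
Width in bp of each H3K27ac peak matched 1 to 1 between the control list (x axis) and the KO list (y axis) of a sex, coloured by gene, with the line of equal width in grey. In males 19 of 20 points lie above the line, as do 75.4% of pairs over the genome, and in females 24 of 32 lie below it, as do 69.5%.

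H3K27ac peaks and H3K27me3 regions shared more of their bases in KO liver. Of the H3K27ac bases in the members' windows, 27.3% lay inside H3K27me3 regions of the same group in control male, 94.3% in KO male, 29.6% in control female and 76.1% in KO female liver. Over the genome these shares were 13.2%, 31.8%, 15.7% and 20.7%. At Hnf4a the share was 0% in both controls and 94.3% in KO liver of both sexes. At Foxa3 it was 0% in both controls, 73.5% in KO male and 73.9% in KO female liver. Foxa1 and Foxa2 were at 100% in all 4 lists, and Cebpb was at 100% in KO male and at 15.9% in KO female liver. In pooled whole liver, both marks on the same chromosome and the marks in different cells cannot be told apart. In males 6 members had both higher H3K27me3 coverage and more H3K27ac bases by the rules above, a class with 3.50% of all genes. In females none did (0.0447%).

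H3K4me1 bases passed the rule at few members. In males 1 member, Hnf4a, had fewer H3K4me1 bases by the rule (5.57% of genes did) and none had more (4.22%). In females Hnf4a and Cebpb had fewer (7.79%) and none had more (1.39%). With a window of 50 kb the members lower in females were Hnf4a and Cebpa, against 13.6% of genes. Cebpa was then at -2219 bases, and Cebpb, at -585, no longer passed. The median ratio of KO to control was 0.612 in males and 0.529 in females, each over the 7 members with a peak in both lists, against 0.965 and 0.845 over all genes with peaks in both lists. Foxa1 was the member left out in either sex. Within 5 kb of the start no member was lower in either sex, against 1.34% of genes in males and 1.38% in females. At several members the control list held fewer than 1000 bases, so that they could not be lower by the rule whatever the ratio.

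Hnf4a had 3506 H3K4me1 bases in control male, 1819 in KO male, 2891 in control female and 767 in KO female liver. Cebpb had 2169, 1323, 1323 and 260 bases in the same order, and Onecut1 had 689, 328, 460 and 130. All 3 had fewer bases in KO than in control liver of either sex, as did Onecut2 and Foxa3. Of these genes, Hnf4a alone passed the rule in both sexes and Cebpb passed it in females, and the others passed in neither. Onecut2 had 3912, 3379, 1182 and 1126 bases, a larger difference between the sexes than between the genotypes. Foxa3 had 1484, 1280, 1662 and 880 bases and Cebpa 1286, 1469, 802 and 620. Foxa2 had 1608, 984, 585 and 901 bases, and Foxa1 had none in control male, 224 in KO male, 245 in control female and none in KO female liver. Foxa2 in females, and Cebpa and Foxa1 in males, thus had more bases in KO liver, but none of these differences passed the rule. Foxa1 had a single peak in 2 of the lists.

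Few H3K4me1 sites recurred. Of 49 sites in the windows, 6 (12.2%) were in all 4 lists and 29 (59.2%) in 1 list only, against 28.4% and 37.4% of sites over the genome. The peaks numbered 32 in control male, 26 in KO male, 20 in control female and 12 in KO female liver. Among peaks matched 1 to 1 the median width ratio was 0.858 over 16 pairs in males and 0.886 over 8 pairs in females, against 0.983 and 0.916 over the genome. The KO female list was the shortest for H3K4me1 and is the one for which the labels give 3 livers.

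Control livers of the sexes were also set side by side. All 8 members had more H3K27ac bases in control female than in control male liver, as did 90.7% of all genes with peaks in both lists. The median ratio was 3.29 over the members and 1.47 over those genes. The ratio was 10.3 at Cebpb, 9.03 at Onecut1, 4.86 at Cebpa and 1.69 at Foxa2, the smallest. In KO liver 1 member, Cebpa, was higher in females, where 24.2% of genes were, and the median ratio was 0.872, against 0.865 over all genes. For H3K4me1 the median ratio of females to males was 0.624 in control and 0.422 in KO liver over the 7 members with a peak in both lists, against 0.803 and 0.697 over all genes. The control male H3K27ac list enters both the genotype and the sex comparison, so that these are not separate observations of it.

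Near the starts, an H3K27ac peak lay within 1 kb of 7 of 8 members in control male, 7 in KO male, 8 in control female and 7 in KO female liver, against 44.9%, 52.0%, 50.9% and 51.6% of all genes. Onecut2 was the member without one in the 3 lists with 7. Its nearest H3K27ac peak was 6535 bp upstream of the start in control male, 1339 bp downstream in KO male, 672 bp upstream in control female and 1468 bp downstream in KO female liver.

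Likeness of the genes was taken as the mean absolute difference, in percentage points, of the covered shares over the 12 lists. The shares are of the gene span for H3K27me3 and of the 10 kb window for the other marks, and were not scaled. Among the members they reached 100% for H3K27me3, 20.5% for H3K27ac and 10.1% for H3K4me1. The mean thus rests mostly on H3K27me3, and genes alike by it need not be alike in the other marks. Foxa1 and Foxa2 differed by 2.76 points, Cebpa and Cebpb by 3.02, and Foxa3 and Onecut1 by 3.93. Hnf4a was nearest to Foxa3 among the members, at 5.03 points. Outside the members, the genes most like Hnf4a were Lsr (1.18) and 2610034B18Rik (1.75), those most like Foxa3 were Nnmt (0.720) and 1100001G20Rik (0.859), and those most like Cebpb were Fgg (0.738), which encodes a fibrinogen chain, and Klhdc7a (0.992). Cebpa was most like Hp (1.30), which encodes haptoglobin, and Slc25a10 (1.37). Foxa1 was most like Gm16494 (0.713) and Nkg7 (0.811), Foxa2 like Ren1 (0.990) and Cbx8 (1.17), Onecut1 like Cyp3a13 (1.09) and Mlxipl (1.13), and Onecut2 like Ttc39a (1.70) and Smoc1 (2.00).

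Other transcription factor genes of liver were read in the same way, with 19 of 20 listed genes matched. In males 9 of 19 had higher H3K27me3 coverage and 1 lower, and in females 7 had higher and 2 lower, beside the shares of all genes given above. Nr0b2, a corepressor that lacks a DNA-binding domain, was covered to 0% in control male, 100% in KO male, 0% in control female and 100% in KO female liver. Nr2f2, a receptor known from vessel and mesenchymal cells, was lower, at 40.7%, 0%, 27.2% and 0% in the same order. H3K27ac was higher at 13 of 19 in males (20.1% of all genes, and 30.4% of those with a peak in all 4 lists) and lower at none, and in females lower at 2, Hhex and Gata6 (5.23%), and higher at none. H3K4me1 was higher at Onecut3 and Cebpe in males (4.22% of all genes), and in females higher at Nr2f2 (1.39%) and lower at Nr1h4 (7.79%).

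Liver genes that these factors are known to regulate were the last list, also with 19 of 20 matched. Serpina1a, named after its values were seen, was matched but had no peak or coverage in any list. H3K27me3 coverage was higher at 9 in males (9.86% of all genes were) and at 6 in females (6.29%), and lower at none (6.07% and 7.59%). Afp, which is silenced after birth, Apoc3 and the gluconeogenic G6pc each went from 0% in the control to 100% in the KO list of both sexes. Apoa1, which neighbours Apoc3, was covered to 0%, 100%, 0% and 50.3% in control male, KO male, control female and KO female liver. Alb, Ttr, Apob and Cps1, named after their values were seen, had at most 2.73% of their span covered in any list. H3K27ac was higher at 15 of 19 in males (20.1% of all genes, and 30.4% of those with a peak in all 4 lists), the largest differences being at Pck1 (782 and 4068 bases in control and KO), Apoc3 (1989 and 5052) and Gys2 (1252 and 4162). In females it was lower at 4 (5.23% of all genes), with 4263 and 2585 bases at Apoa1, 2606 and 1049 at Alb and 3523 and 2344 at Apob, and higher at none. H3K4me1 was lower at Apoc3 and Afp in males (5.57% of all genes) and at Otc alone in females, a share below the 7.79% of all genes.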

How the data were processed

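Per the labels and the study's methods, the authors pooled the paired-end reads (50 nt) of each group's livers before mapping with Bowtie2 (version 2.3.2). They used SICER (version 1.1) for H3K27me3, joining windows of 400 bp over gaps of up to 2400 bp. MACS2 (version 2.1.1) at its defaults gave the peaks of the other marks. For H3K4me1 of E1/E2-KO female liver the labels list 3 livers, whereas the study's methods describe 4. The deposited lists hold chromosome, start, end and name in mm9, without score, count or depth. Default narrow MACS2 peaks split a broad H3K27ac or H3K4me1 domain into several, and SICER joins windows across gaps.

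Starts were read as counted from 0 and printed from 1. The base that SICER omits at a region end was added. Genes came from GENCODE M1 on NCBIM37, which is mm9. Coverage is the percent of the gene span inside H3K27me3 regions, called from 25 percentage points. H3K27ac and H3K4me1 are bases inside peaks within 10 kb of the span, called from 1.5 times and 1000 bases. Peaks were matched by an overlap of at least 1 bp. No test was made, since each group has 1 list per mark. The members, lists and rules were chosen with earlier results of these data known. All members are named, with the 3 largest called changes per direction of each list, the 2 genes most like each member and the neighbours in their windows. Some genes that this rule names, and 1 motif, are not reported here. Cebpd and Tf could not be matched by symbol to a protein-coding gene. The alternatives were other windows and spans, merged peaks, equal numbers of widest peaks and stricter calls. Coverage and matching were tested on simulated data. Programs were Python 3.11.15, NumPy 2.4.6 and matplotlib 3.10.9.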

Additional observations from a re-analysis of the deposited data

Results flagged for a closer look

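Onecut1 differed between the sexes in the direction of its H3K27ac difference. H3K27ac bases within 10 kb were higher in KO than in control liver by 2681 in males (388 in the control list, 3069 in the KO list). In females the difference was -2127 (3502 in the control list, 1375 in the KO list). Each value is 1 pooled list, and the difference between the sexes was not tested. The gene was fully covered by H3K27me3 in both KO lists. With a window of 50 kb the difference in females was -2746 bases and no longer passed the rule of 1.5 times.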

How the results depend on the processing

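No paired analysis was possible because the livers that share a replicate number across groups were pooled before peaks were called, and for the same reason no liver could be left out. The share of all genes passing the same rule stands in brackets. Members with higher H3K27me3 coverage stayed at 6 in males (9.86%) under all 6 alternatives, and no direction of a called difference turned. The male shares were 10.5% with 3 kb added, 12.7% within 5 kb of the start and 10.3% with equal numbers of the widest regions. In females the count lay between 3 and 6, instead of 4 (6.29%). It was 6 with 3 kb added (6.61%), 3 within 5 kb of the start (7.48%) and 4 with equal numbers of the widest regions (7.18%). For the other alternatives of this mark no share over all genes is given. H3K27ac was higher in males at 3 members in the gene span only (11.4%) and at 5 within 5 kb of the start (3.57%), instead of 8 (20.1%). H3K27ac was lower in females at 2 members within 5 kb of the start (0.805%) and with equal numbers of the widest peaks (7.04%), instead of 1 (5.23%). H3K4me1 was lower in males at 2 members with a window of 50 kb (5.78%) or peaks within 1 kb merged (10.0%), and at 0 within 5 kb of the start (1.34%) or when called from 2 times (2.68%), instead of 1 (5.57%). H3K4me1 was lower in females at 1 member in the gene span only (3.75%), at 0 within 5 kb of the start (1.38%) and at 3, with Foxa3 added, with peaks within 1 kb merged (12.1%), instead of 2 (7.79%). Narrower windows hold fewer bases, and the minimum of 1000 was kept for them. The cause of the changes in these counts was not tested under any alternative. With a window of 50 kb, Onecut1 no longer passed the rule for H3K27ac in females, at -2746 bases, and Onecut2 passed it, at -2585. Unknown depth limits every count, and the short control male H3K27ac list enters each male H3K27ac value.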
